A study of Mus musculus with 56 samples.

Results

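The genes described here are the 78 mouse genes that encode mitochondrial ribosomal proteins, out of 19072 genes in the deposited expression table. They were chosen by name, as every gene whose Entrez ID carries a symbol beginning with Mrpl or Mrps and a number, with pseudogenes left out. They comprise 49 Mrpl and 29 Mrps symbols, and the reference annotation holds no further such gene outside its 6 pseudogenes. All 78 passed the filter on low levels and were tested. RNA came from the gastrocnemius muscle of the calf. The donors were female C57BL/6J mice, 9 weeks old at collection, under 12 h light and 12 h dark. After 7 days of free feeding, the mice had 7 days of daytime-restricted feeding (DRF, food in the light phase) or of nighttime-restricted feeding (NRF, food in the dark phase, when mice are normally active). Each regimen was sampled every 4 h at 7 times, from ZT0 through ZT24 (zeitgeber time, hours from lights on), with 4 libraries per group, 28 per regimen and 56 in all. The labels do not state whether the 4 libraries of a group come from separate animals, so p-values measure the spread between these libraries, which may be technical.

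Mitochondria carry their own ribosome, which translates the few proteins encoded by mitochondrial DNA, all of them core subunits of the respiratory chain and ATP synthase. Its RNAs come from mitochondrial DNA, while its proteins are encoded in the nucleus, made in the cytosol and imported, and they assemble into a large and a small subunit. Some of these proteins have bacterial counterparts, and others are found only in mitochondrial ribosomes. Skeletal muscle depends on this ribosome for oxidative capacity.

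The 4 members with the smallest p in the rhythm test of DRF mice are introduced by their promoters, because they fall into pairs that peaked at opposite phases. Mrpl47 and Mrpl50 peaked in the light phase and Mrps21 and Mrpl23 in the dark phase. The sequences are the 250 bases upstream of an annotated start, 5′ to 3′ on the gene's strand, from RefSeq on build GRCm38.p6. They lie at chr3:32736756-32737005 on the minus strand for Mrpl47 and at chr4:49521084-49521333 on the minus strand for Mrpl50. Those of Mrps21 and Mrpl23 lie at chr3:95871515-95871764 on the minus strand and at chr7:142532782-142533031 on the plus strand. The Mrpl23 window is inside the gene's annotated span, which begins at 142532467, so it precedes a start within that span. Capitals mark a match to 1 of 4 searched motifs.
Mrpl47: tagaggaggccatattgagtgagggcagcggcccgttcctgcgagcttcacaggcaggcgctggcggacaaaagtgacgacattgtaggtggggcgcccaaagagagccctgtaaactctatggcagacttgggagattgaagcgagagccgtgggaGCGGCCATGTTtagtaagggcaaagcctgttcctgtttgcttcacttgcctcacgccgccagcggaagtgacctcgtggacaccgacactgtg
Mrpl50: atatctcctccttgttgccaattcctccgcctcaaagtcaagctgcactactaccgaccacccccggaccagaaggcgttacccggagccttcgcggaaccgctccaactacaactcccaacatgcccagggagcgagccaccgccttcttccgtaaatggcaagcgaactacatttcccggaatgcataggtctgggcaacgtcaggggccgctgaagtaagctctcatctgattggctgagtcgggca
Mrps21: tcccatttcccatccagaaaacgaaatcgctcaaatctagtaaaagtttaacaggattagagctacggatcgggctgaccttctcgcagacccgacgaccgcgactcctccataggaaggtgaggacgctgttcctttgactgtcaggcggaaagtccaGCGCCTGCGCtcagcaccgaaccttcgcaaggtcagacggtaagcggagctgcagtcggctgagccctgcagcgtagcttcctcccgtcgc
Mrpl23: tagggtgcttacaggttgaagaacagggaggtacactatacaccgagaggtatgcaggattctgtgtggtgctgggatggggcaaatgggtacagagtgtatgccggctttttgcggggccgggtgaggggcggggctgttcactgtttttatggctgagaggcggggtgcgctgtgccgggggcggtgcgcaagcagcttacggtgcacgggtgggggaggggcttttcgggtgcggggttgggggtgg

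The motifs were those of NRF1 (GCGCNTGCGC), of ETS factors such as GABP (CCGGAAG), of E-box clock factors (CACGTG) and of YY1 (AANATGGCNGC), each searched on both strands in the same 250 bases. NRF1, GABP and YY1 are known regulators of nuclear genes for mitochondrial proteins. The Mrpl47 window held a YY1 match on the opposite strand, 93 bases upstream, and the Mrps21 window held an NRF1 match 91 bases upstream. The windows of Mrpl50 and Mrpl23 held none of these letters. A promoter entry was found for 69 of the 78 members and for 9612 tested genes. The ETS motif stood in 18 of the 69 (26.1%) and in 15.4% of the tested genes' windows, and the NRF1 motif in 10 (14.5%), against 9.36%. The YY1 motif stood in 3 (4.35%), against 1.65%, and the E-box in 5 (7.25%), against 10%. A match is a description of the letters and no evidence of binding.

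Levels are given in CPM, reads per 1000000 of the authors' library size, from read counts recovered from the deposited values. The libraries held 28173234 to 36183625 recovered reads. The members averaged 11.7 to 203 CPM with a median of 34, and the count of a member in a library ran between 237 for Mrpl47 and 7722 for Mrpl42. Per kilobase of gene length, the highest mean levels were those of Mrps21 (102 CPM per kilobase), Mrpl12 (55.4) and Mrpl42 (55.3). Mrpl12 encodes a protein of the stalk that recruits translation factors, Mrps21 a small subunit protein with a bacterial counterpart and Mrpl42 a protein specific to mitochondrial ribosomes. The lowest were Mrps35 (1.84), Mrpl47 (2.65) and Mrps10 (3.09). The recovered lengths, for most genes the union of all annotated exons, untranslated ones included, ran from 607 to 8631 bases. Their median was 2213.5, against 4492 for all 12025 tested genes. A recovered length can exceed the RefSeq gene, as for Mrps26 (4358 bases, RefSeq span 130563757 to 130565394 on chromosome 2). The levels per kilobase and the length trend rest on these lengths. Skeletal muscle marker genes were abundant in all libraries, and no marker gene was at 0.

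Averaged over the day, mitochondrial ribosomal protein transcripts were slightly higher in DRF than in NRF muscle. The summed level of the 78 genes had its lowest, median and highest values at 2665, 3141 and 3807 CPM in the 28 DRF libraries, against 2361, 2959 and 3331 CPM in the 28 NRF libraries. The ranges overlapped over most of their width. The median member differed by 0.10 on the log2 scale (DRF minus NRF, SD over members 0.06, range −0.07 to 0.20), while the median of all tested genes was −0.00. The difference was above 0 in 73 of 78 members, and in 55 members the DRF mean was the higher at 6 or 7 of the 7 times. limma, with Benjamini-Hochberg adjustment over all tested genes, called 38 members higher and 0 lower, where 15.9% of all tested genes were called (8.35% higher and 7.53% lower). At an unadjusted p under 0.05 there were 53 members. The folds of the 38 ran from 1.06 to 1.15. With recovered total counts as library sizes in place of the authors' sizes, 7 members were higher and 3 lower (Mrpl50, Mrpl19 and Mrps22). Of all 12025 tested genes, 196 were then called higher and 3303 lower. That scaling moved the median of all genes to −0.07 and the median member to 0.02. The difference was then above 0 in 56 of the 78 members, and 73 lay above the median of all genes.

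**Figure D1:**
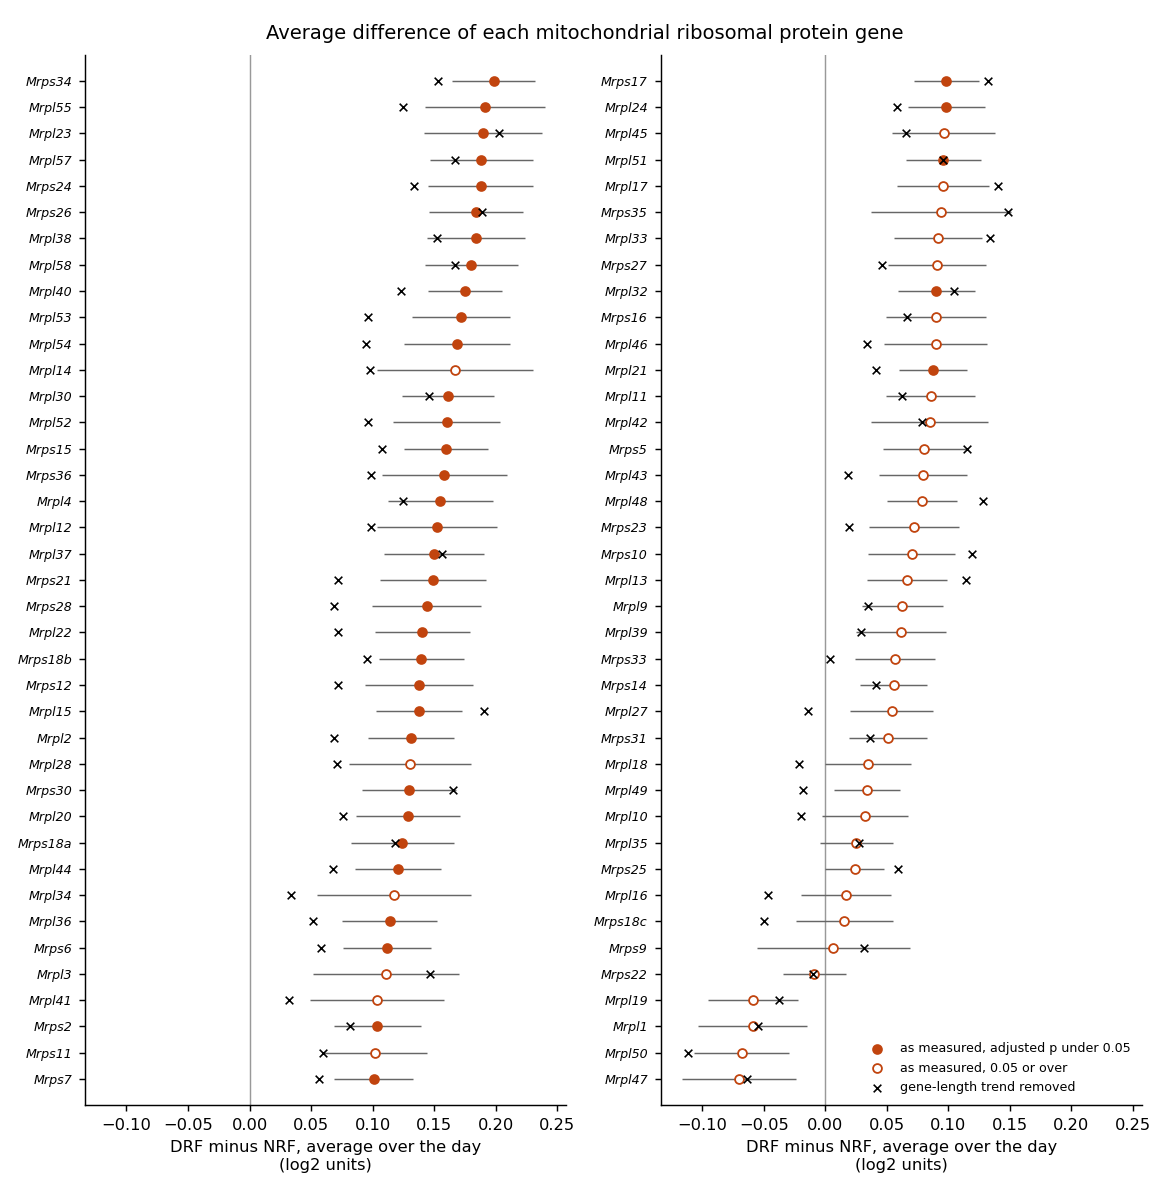
Difference between DRF and NRF averaged over the day for each of the 78 genes, in log2 units, sorted in 2 columns. Circles with bars are the measured difference and its SE (filled where the adjusted p is under 0.05), and crosses are the difference with the gene-length trend removed. The values run from −0.07 to 0.20, and with the authors' library sizes the 38 filled circles all lie above 0.

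The number of calls depended on gene length. Across all tested genes, shorter genes had the higher DRF minus NRF difference (Spearman's rho −0.441 over 12025 genes), and the members are short. Within the members rho was −0.286 over 78 genes. Genes are not independent replicates, so these are descriptions of the trend. When a smooth trend of the log2 values on gene length was taken out of each library, 22 members were called higher and 0 lower, where 7.89% of tested genes were called (4.91% higher). Of these, 18 were also among the 38, and the other 4 were Mrps5, Mrpl33, Mrpl48 and Mrpl17. The median member difference was then 0.07. The members' rho turned to 0.353 after the removal, so that the longer members had the higher differences, while rho over all tested genes was −0.00920. Whether the length trend comes from the libraries or from the muscle was not tested.

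**Figure D2:**
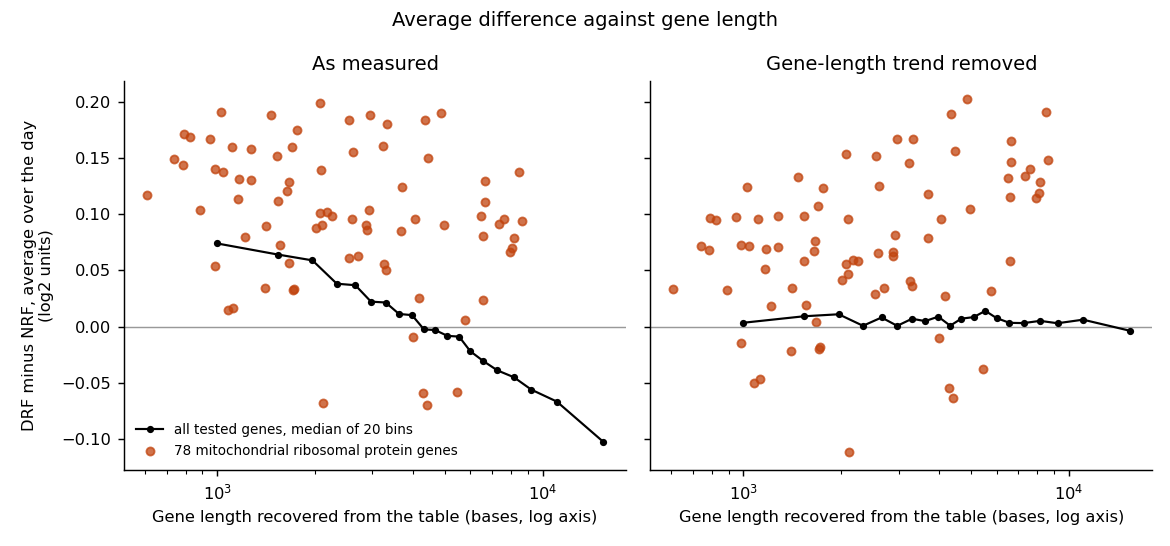
Difference between DRF and NRF averaged over the day, in log2 units, against gene length in bases on a log axis, as measured on the left and with the gene-length trend removed on the right. Points are the 78 members and the line joins medians of all tested genes in 20 bins of length. On the left the line falls with length and most members lie above it. On the right the line stays near 0 and the median member is at 0.07.

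Mrps34 (gene 79044, chromosome 17, 24895120 to 24896289 on GRCm38.p6), a small subunit protein needed for a stable small subunit, had the largest difference and, with Mrpl40, the smallest adjusted p. It had 31.5, 38.3 and 49.9 CPM in DRF libraries (lowest, median and highest), against 27.5, 34.1 and 44.9 CPM in NRF libraries. The difference was 0.20 ± 0.03 (log2, SE), the fold 1.15 and limma's adjusted p 0.00034, and 0.00243 with the length trend removed. The DRF mean was the higher at 7 of 7 times. At ZT12 the 4 DRF libraries had 45.8, 38.9, 42.7 and 40.2 CPM, against 33.4, 32.1, 28.2 and 33.3 CPM in the 4 NRF libraries. At that time every DRF library lay above every NRF library (difference 0.39 ± 0.09, limma's adjusted p = 0.00985). The adjusted p was 0.0850 with recovered total counts as library sizes, and the call was also lost without DRF ZT12 replicate 1 or NRF ZT12 replicate 3.

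Mrpl40 (gene 18100, chromosome 16, 18872018 to 18876637), a large subunit protein, had 17.8, 20.6 and 25.7 CPM in DRF libraries (lowest, median and highest), against 15.5, 18.8 and 21.4 CPM in NRF libraries. Its difference was 0.18 ± 0.03, with limma's adjusted p at 0.00034, and 0.00286 with the length trend removed. By p, the next were Mrps26, a small subunit protein specific to mitochondria (0.18 ± 0.04, adjusted p = 0.00213), and Mrpl58 (0.18 ± 0.04, adjusted p = 0.00229). Mrpl58 is a peptidyl-tRNA hydrolase that rescues stalled ribosomes and is also part of the large subunit. The adjusted p of Mrpl58 was 0.0677 with recovered total counts as library sizes (0.000647 to 0.0677 over all alternatives), while the calls of Mrps34, Mrpl40 and Mrps26 were kept under that scaling. The members with the smallest p below 0 were Mrpl50 (−0.07 ± 0.04, adjusted p = 0.213), Mrpl19 (−0.06 ± 0.04, 0.271), Mrpl47 (−0.07 ± 0.05, 0.302) and Mrpl1 (−0.06 ± 0.04, 0.376), none of which passed limma's test.

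Members of both subunits were among the 38. Of the 51 proteins of the large subunit, which include Mrps30 and Mrps18a despite their names, 25 were higher, and of the 26 of the small subunit 12 were higher, each with a median difference of 0.10. Mrps36, now known as a component of the 2-oxoglutarate dehydrogenase complex, was counted apart and was also higher. Of the 44 members numbered like a bacterial protein 21 were higher, and of the 34 with numbers above the bacterial range 17 were higher. The medians were 0.10 in both, and no test of a difference between these groups was made. In 10 members (Mrpl9, Mrpl15, Mrpl19, Mrpl24, Mrpl27, Mrpl35, Mrpl39, Mrpl41, Mrpl43 and Mrps25) some recovered counts were decimal, which marks reads shared with other genes, so their values are uncertain. Only Mrpl15 and Mrpl24 of these were higher, against 36 of the 68 members with whole counts. No strand-marking step is named in the library protocol, and reads of a member and of a transcript antisense to it cannot be told apart.

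In whole tissue, more cells of a type and more RNA per cell cannot be told apart. Markers of red blood cells moved with the regimen. All 5 on that list were higher in DRF on average, with a summed level of 262, 535 and 1677 CPM in DRF libraries (lowest, median and highest), against 185, 350 and 755 CPM in NRF libraries. Of 5 skeletal muscle markers 3 were higher, and their sum was 101353, 162301 and 233992 CPM in DRF libraries, against 92049, 142564 and 197513 CPM in NRF libraries. Of the lists for slow fibre, endothelium, adipocyte, macrophage, fibroblast and nerve, no member was called. The part of these markers in the members' difference was not tested.

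At single times the difference was called for few members. At ZT12 it was called for 7, all higher in DRF, where 3.50% of tested genes were called. They were Mrps34, Mrpl51, Mrps15, Mrpl30, Mrpl23, Mrps26 and Mrpl40, with differences of 0.26 to 0.42, and the median over all 78 was 0.18. Leaving out DRF ZT12 replicate 1 or NRF ZT12 replicate 3 left 0 of these calls, as did recovered total counts as library sizes. In NRF ZT12 replicate 3 the median member stood 0.34 below its mean over all libraries. At ZT16, 6 members were called higher (Mrps6, Mrpl2, Mrpl38, Mrpl37, Mrpl40 and Mrpl57) and 2 lower (Mrpl50 and Mrpl47), where 10.8% of tested genes were called (4.02% higher and 6.74% lower), and the median was again 0.18. That count ran from 0 without DRF ZT16 replicate 1, DRF ZT16 replicate 3 or NRF ZT16 replicate 2 to 28 without DRF ZT16 replicate 4. With total counts as library sizes there were 0 higher and 4 lower at ZT16 (Mrpl47, Mrpl50, Mrps18c and Mrps22).

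At ZT4 Mrps2, a small subunit protein with a bacterial counterpart, was the only member called (0.36 ± 0.09, limma's adjusted p = 0.0301), where 0.973% of tested genes were called. Its adjusted p was 0.0534 with the length trend removed (0.0153 to 0.147 over all alternatives), and the call ended without DRF replicate 1, 3 or 4 or NRF replicate 2, 3 or 4 of that time. At ZT24 the only one was Mrps30 (0.33 ± 0.10, adjusted p = 0.0357), where 5.56% were called, and that call ended without DRF or NRF replicate 1, 3 or 4 of that time. At ZT0, ZT8 and ZT20 limma called 0 members, with 4, 2 and 13 at an unadjusted p under 0.05 and 1.85%, 0.208% and 2.96% of tested genes called. The smallest p at those times were those of Mrps30 at ZT0 (adjusted p = 0.224), Mrps17 at ZT8 (0.252) and Mrps24 at ZT20 (0.115). Median differences at the 5 times other than ZT12 and ZT16 were 0.07, 0.09, 0.04, 0.09 and 0.06 for ZT0, ZT4, ZT8, ZT20 and ZT24.

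The set as a whole was followed by the median over members of each gene's deviation from its mean over all libraries. In DRF it averaged −0.03, 0.06, −0.03, 0.09, 0.11, 0.07 and 0.11 from ZT0 to ZT24, and in NRF −0.09, −0.05, −0.07, −0.09, −0.05, −0.00 and 0.05. The SD over the 4 libraries of a group was 0.04 to 0.19 in DRF and 0.05 to 0.17 in NRF, about as large as the steps between times. The highest library was DRF ZT20 replicate 1 at 0.34, and the lowest was NRF ZT12 replicate 3 at −0.34. With either of them left out, 26 members were called higher on average, against 38 with both. Removing the length trend left the order of the extremes as it was (0.30 and −0.34).

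**Figure D3:**
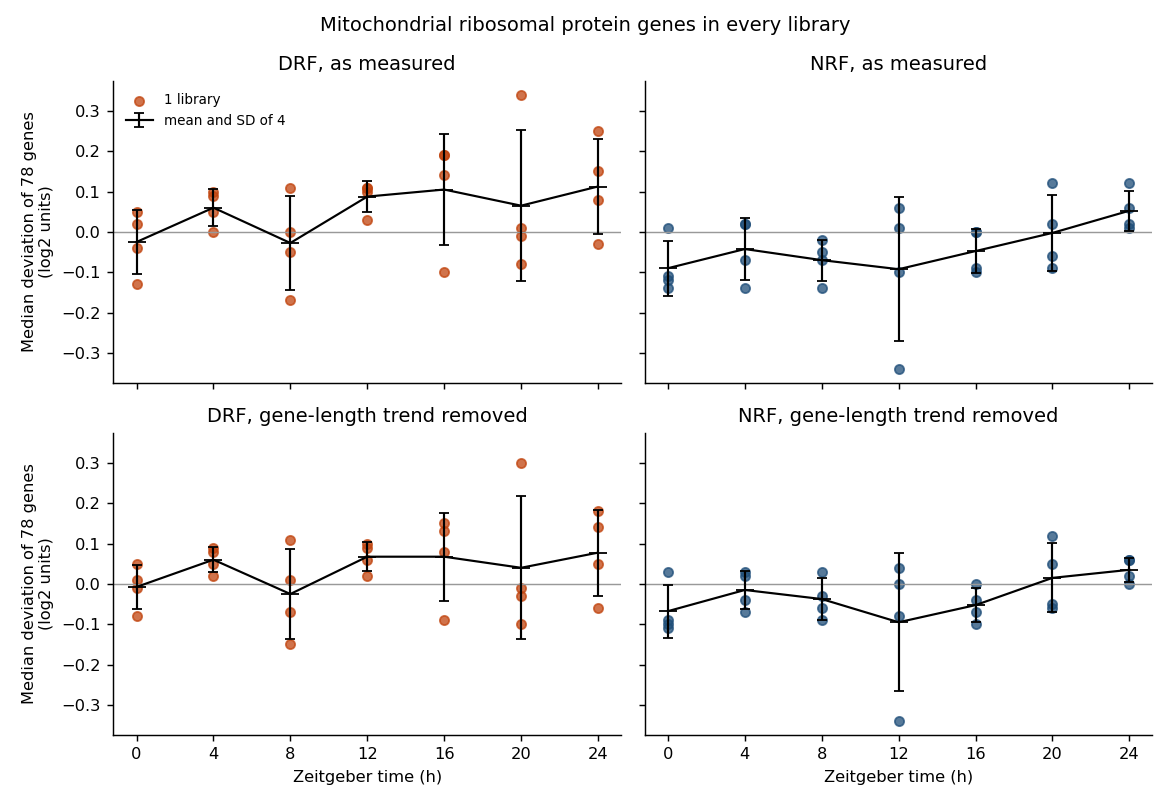
Median deviation of the 78 genes from their own means, in log2 units, in each library against zeitgeber time in hours, for DRF on the left and NRF on the right, as measured above and with the gene-length trend removed below. Points are libraries, and bars are the mean and SD of 4. DRF ZT20 has 1 library at 0.34 and NRF ZT12 has 1 at −0.34, and the other libraries lie between −0.17 and 0.25.

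The first and last times are the same hour of the day, and most members had the higher mean at ZT24 in both regimens. In DRF the median member difference was 0.14 (71 of 78 above 0) and in NRF 0.13 (72 of 78), while the medians of all tested genes were 0.02 and −0.01. limma called 0 members in either regimen, with 14 in DRF and 21 in NRF at an unadjusted p under 0.05, where 0.274% and 0% of tested genes were called. This difference between times that share a clock hour was larger than the median difference of 0.10 between the regimens. The ZT24 and ZT0 comparison was added after the data were seen. Without the ZT24 libraries 28 members were higher on average over the day, and without those of ZT0 33 were.

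Rhythm was fitted as a 24 h cosine curve in each regimen. The F test asked whether that curve was flat. limma's F test called 18 of 78 members in DRF (23.1%), where 48.7% of tested genes were called. The median peak-to-trough was 0.16 for the members and 0.26 for all tested genes (log2 units). In the 18 it ran from 0.21 to 0.65. The count was 11 without DRF ZT16 replicate 3 or DRF ZT20 replicate 1. In NRF limma called 0 of 78, where 15.1% of tested genes were called, with 2 members at an unadjusted p under 0.05. The smallest p in NRF were those of Mrps26 (peak-to-trough 0.23, adjusted p = 0.115), Mrpl53 (0.21, 0.182), Mrps23 (0.18, 0.202), Mrpl45 (0.18, 0.221) and Mrpl9 (0.14, 0.270). With the length trend removed 13 members were rhythmic in DRF, where 46.9% of tested genes were called, and 1 in NRF (Mrps23), where 15.7% were. Of the 13, 10 were among the 18, and the others were Mrpl41, Mrpl48 and Mrpl16. An F test over the 7 times with no curve called 11 members in DRF and 1 in NRF, where 47.2% and 19.7% of tested genes were called. In the authors' deposited table of rhythm tests, 3 members had a q under 0.05 in DRF (Mrpl47, Mrpl50 and Mrps31), where 15.9% of its 16119 genes did. In the authors' deposited table for NRF 0 members did, where 7.16% of genes did.

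The 18 fell into 2 phases. A light-phase peak, between ZT5.04 and ZT7.70, was fitted for 6 members (Mrpl47, Mrpl50, Mrps31, Mrps2, Mrpl19 and Mrpl1), and their median difference from NRF over the day was −0.06. A dark-phase peak, between ZT15.1 and ZT18.2, was fitted for the other 12. The median difference of these 12 over the day was 0.16. Of these 12, 10 were among the members higher in DRF on average, against 1 of the 6 (Mrps2). With the length trend removed 5 of the 12 and 0 of the 6 were higher on average. The matching shares over all rhythmic genes of each phase are not given here, so these counts are no result about the members. The light-phase members were the longer, with a median length of 3793 bases, against 1565 for the dark-phase ones. With the length trend removed, the dark-phase members Mrps28, Mrpl20, Mrpl54, Mrpl27, Mrpl36 and Mrps34 lost their rhythm calls (limma's adjusted p 0.0697 to 0.270). The light-phase members Mrpl19 (0.142) and Mrpl1 (0.0610) lost theirs too. Over all genes rhythmic in DRF, 52.4% peaked in the light phase and 47.6% in the dark phase.

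**Figure D4:**
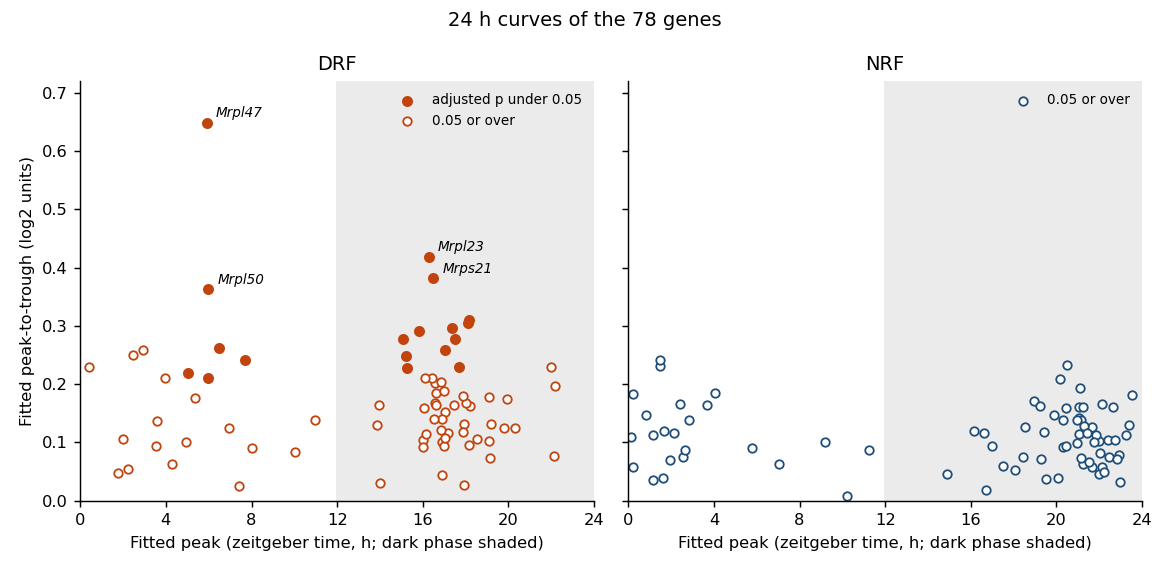
Fitted peak-to-trough in log2 units against fitted peak time in hours for the 78 genes, in DRF on the left and NRF on the right, with the dark phase shaded. Filled points have an adjusted p under 0.05 in limma's F test, and the 4 largest are named. In DRF the filled points form a group between ZT5.04 and ZT7.70 and one between ZT15.1 and ZT18.2, and in NRF there are 0 filled points. With recovered total counts as library sizes 11 of the 12 dark-phase calls were lost.

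The dark-phase calls depended on the library size used. With the authors' sizes the median of all tested genes stayed between −0.00 and 0.02 in every group. With recovered total counts that median itself moved over the day, and in DRF it was 0.06 at ZT0, −0.12 at ZT16 and −0.11 at ZT20. In NRF it was 0.18 at ZT0 and −0.07 at ZT20. Under that scaling all 6 light-phase members (Mrpl47, Mrpl50, Mrps31, Mrps2, Mrpl19 and Mrpl1) were again called, with peaks between ZT4.50 and ZT6.00. The 12 dark-phase members kept a fitted peak in the dark phase, between ZT12.4 and ZT21.5, but their peak-to-trough was 0.04 to 0.22, and 11 of the 12 calls were lost. The remaining one was Mrpl23 (peak ZT16.6, limma's adjusted p = 0.0315). The count of rhythmic members was 19, of which 18 peaked in the light phase. The share and phases of all rhythmic genes under that scaling are not given here, so this count is no result about the members.

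Mrpl47 (gene 74600, chromosome 3, 32727497 to 32736755), the counterpart of a bacterial protein beside the exit of the peptide tunnel, had the largest rhythm. At ZT8 it had 15.4, 10.5, 12.5 and 13.5 CPM in the 4 DRF libraries, at ZT16 7.69, 10.4, 8.09 and 8.19, and at ZT20 9.05, 8.36, 8.25 and 8.73. All DRF libraries at ZT16 and ZT20 were lower than all at ZT8. In NRF libraries it had 10.1, 11.3, 12.8 and 13.0 CPM at ZT8, 13.2, 12.5, 10.4 and 11.2 at ZT16, and 10.1, 12.6, 12.0 and 8.03 at ZT20. Those NRF values overlapped between the times. The peak-to-trough of Mrpl47 was 0.65 ± 0.10 in DRF with a peak at ZT5.92 (limma's adjusted p = 1.48e-05), and 0.10 ± 0.10 in NRF (0.777). The rhythm differed between the regimens (adjusted p = 0.0138). At ZT16 the difference from NRF was −0.42 ± 0.12 (adjusted p = 0.0236), and DRF replicate 2 stood level with the lowest NRF library at 10.4 CPM.

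Mrpl50 (gene 28028, chromosome 4, 49512597 to 49521083), a large subunit protein specific to mitochondrial ribosomes, followed the same course. At ZT8 it had 51.2, 42.7, 40.8 and 50.3 CPM in DRF, and at ZT16 31.3, 41.4, 34.5 and 36.4, against 44.5, 44.1, 42.1 and 43.5 at ZT8 and 49.7, 48.8, 44.5 and 42.1 at ZT16 in NRF. At ZT16 every DRF library lay below every NRF library (−0.36 ± 0.10, limma's adjusted p = 0.0206). Its peak-to-trough was 0.36 ± 0.08 in DRF with a peak at ZT5.98 (adjusted p = 0.00134), and 0.02 ± 0.08 in NRF (0.988). The adjusted p of the difference in rhythm was 0.0490, and it was 0.0521 with the length trend removed. It passed the threshold in 16 of 65 alternatives, which ran from 0.00188 to 0.0926.

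Mrps21 (gene 66292, chromosome 3, 95862634 to 95871514) had 60.2, 77.5, 76.2 and 75.3 CPM at ZT4 and 96.0, 88.0, 98.4 and 72.7 at ZT16 in DRF libraries. In NRF libraries it had 63.9, 76.9, 82.6 and 74.4 CPM at ZT4 and 72.9, 76.5, 70.5 and 74.0 at ZT16. At ZT16, 3 of 4 DRF libraries stood above all NRF libraries. Its peak-to-trough was 0.38 ± 0.09 in DRF, with a peak at ZT16.5 (limma's adjusted p = 0.00326), and 0.04 ± 0.09 in NRF (0.959). With recovered total counts as library sizes the DRF rhythm of Mrps21 had an adjusted p of 0.0661 (0.000925 to 0.0661 over all alternatives). Its difference from NRF over the day was 0.15 ± 0.04 (adjusted p = 0.0168), and the adjusted p was 0.171 with the length trend removed, Mrps21 being 739 bases long.

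Mrpl23 (gene 19935, chromosome 7, 142532467 to 142540747), another counterpart of a bacterial protein at the tunnel exit, had 56.0, 72.5, 74.1 and 72.1 CPM at ZT4 and 83.0, 96.9, 98.3 and 67.1 at ZT16 in DRF libraries. In NRF libraries it had 55.5, 72.5, 70.8 and 67.6 CPM at ZT4 and 66.5, 69.0, 74.0 and 69.4 at ZT16. Replicate 4 of DRF ZT16 lay within the NRF values, and the other 3 lay above them. Its peak-to-trough was 0.42 ± 0.10 in DRF with a peak at ZT16.3 (limma's adjusted p = 0.00403), and 0.13 ± 0.11 in NRF (0.715). Over the day Mrpl23 was higher by 0.19 ± 0.05 (adjusted p = 0.00806, and 0.0149 with the length trend removed).

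**Figure D5:**
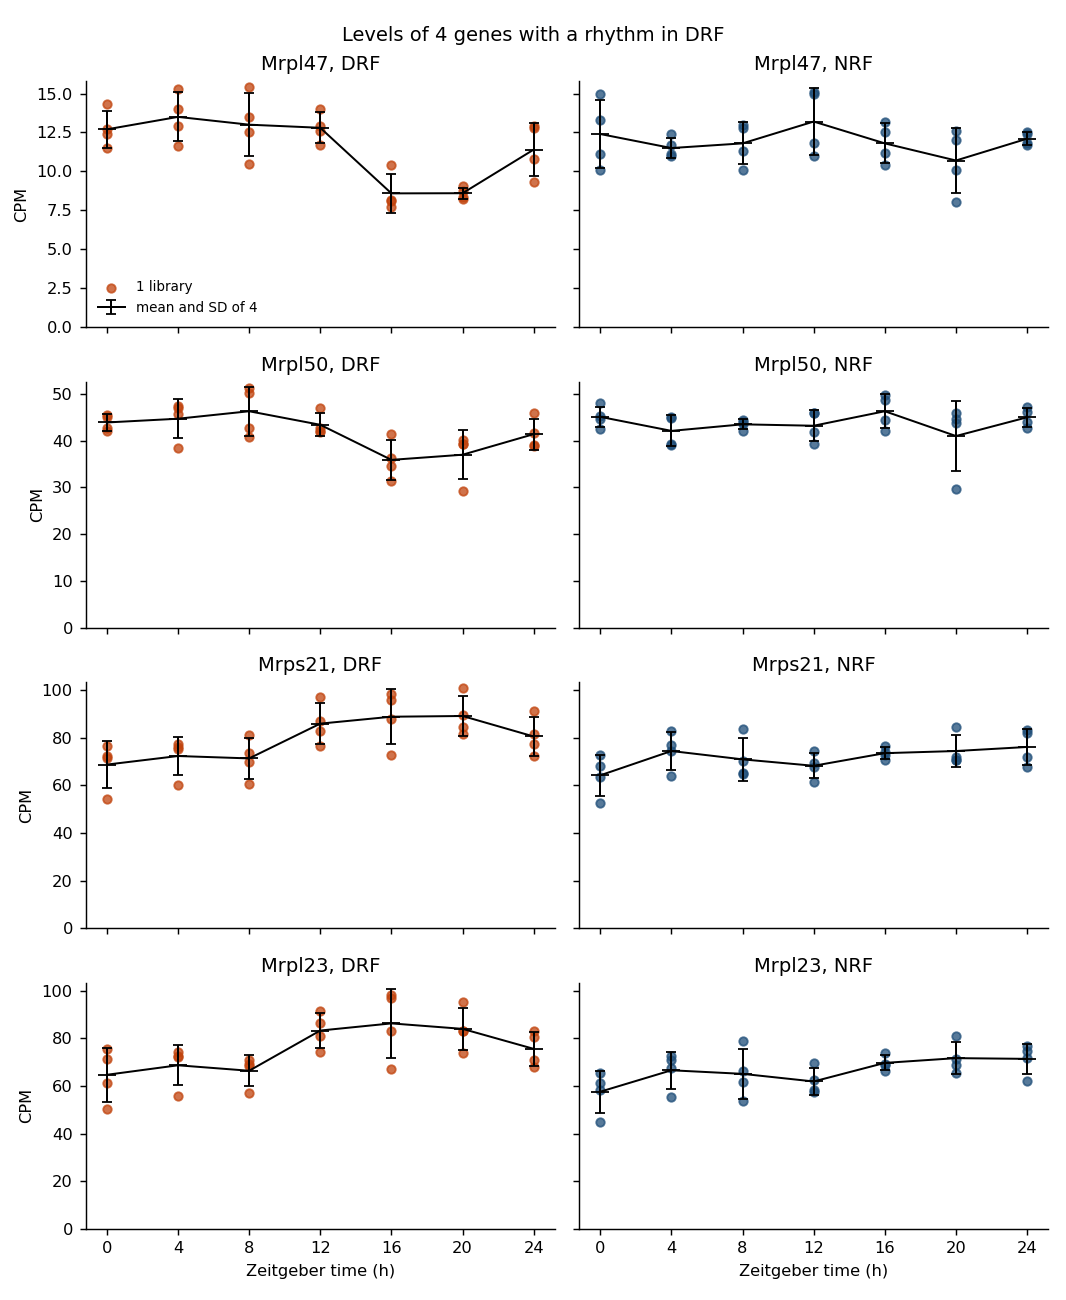
Levels of Mrpl47, Mrpl50, Mrps21 and Mrpl23 in CPM in each library against zeitgeber time in hours, for DRF on the left and NRF on the right. Points are libraries, and bars are the mean and SD of 4. In DRF the means of Mrpl47 and Mrpl50 are lowest at ZT16 (8.59 and 35.9 CPM), and those of Mrps21 and Mrpl23 at ZT16 (88.8 and 86.3 CPM) are above those at ZT0 (68.7 and 64.7 CPM).

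A difference in rhythm between the regimens was called for Mrpl47 and Mrpl50 alone, 2 of 78, where 13.1% of tested genes were called. The next smallest p were those of Mrps31, a small subunit protein specific to mitochondria (adjusted p = 0.0564), Mrps2 (0.0582) and Mrpl19 (0.116). In DRF the peak-to-trough of Mrps31 was 0.24 ± 0.06, peaking at ZT7.70 (limma's adjusted p = 0.00764), and it was 0.06 ± 0.06 in NRF (0.803). With the length trend removed Mrpl47, Mrps31 and Mrps2 passed, where 12.8% of tested genes did. Since feeding was inverted by 12 h, the DRF curve was also compared with the NRF curve moved by 12 h. With 0 of 78 members rhythmic in NRF, this comparison cannot show whether a curve followed the meals. The shifted test called 11 members, where 45.8% of tested genes were called. They were Mrpl47, Mrpl23, Mrpl1, Mrps21, Mrpl50, Mrps34, Mrpl53, Mrps26, Mrps24, Mrpl57 and Mrps28, and the count ran from 2 without DRF ZT16 replicate 3 to 15 without DRF ZT16 replicate 4 or NRF ZT12 replicate 1. It was 23 with recovered total counts as library sizes and 20 without ZT0. The shares of all tested genes under these alternatives are not given here, so the changes in count are no result about the members.

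Other genes of the mitochondrial translation system were counted from lists named by role, with calls in all tested genes at 8.35% higher and 7.53% lower on average and at 48.7% rhythmic in DRF. Of 5 mitoribosomal subunits with other names, 2 were higher in DRF on average (Aurkaip1 and Gadd45gip1), 0 were lower, and 2 were rhythmic in DRF (Aurkaip1 and Ptcd3). With the length trend removed 1 was higher (Gadd45gip1), and Aurkaip1 had an adjusted p of 0.0549. Aurkaip1 had 53.0 ± 6.81 CPM in DRF and 48.0 ± 4.35 CPM in NRF libraries (SD, n = 28 each). Its DRF peak was fitted at ZT16.9 (peak-to-trough 0.25, limma's adjusted p = 0.0341). Of 25 assembly and rRNA modification factors 4 were higher, 1 was lower (Gtpbp10, a GTPase of large subunit assembly) and 12 were rhythmic in DRF. On average 0 were called in either direction with the length trend removed (Gtpbp10 had an adjusted p of 0.134). Under DRF Gtpbp10 peaked at ZT6.05 with a peak-to-trough of 0.52 (limma's adjusted p = 0.00023). Other called genes of that list peaked in the dark phase, among them Rbfa (ZT15.6, adjusted p = 0.00145) and Mpv17l2 (ZT15.3, 0.0131). Of 13 translation factors and related genes 3 were higher (Mtif3, Tufm and Oxa1l), 2 were lower (Mtif2 and Guf1) and 4 were rhythmic in DRF. Tufm (adjusted p = 0.155) and Guf1 (0.199) lost their calls with the length trend removed. Mtif2, the initiation factor that brings the first tRNA, reached its DRF peak at ZT6.74 (peak-to-trough 0.59, adjusted p = 0.000126).

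Of 17 mitochondrial aminoacyl-tRNA synthetases limma called 0 in either direction and 4 rhythmic in DRF, the one with the smallest p being Mars2 (0.41, peak ZT6.14, adjusted p = 0.00222). Of 12 genes of mitochondrial transcription and genome upkeep 1 was higher (Polrmt, the mitochondrial RNA polymerase) and 4 were rhythmic in DRF. Tfam, which packs mitochondrial DNA and starts its transcription, peaked at ZT5.13 in DRF (0.38, limma's adjusted p = 0.000372), and its rhythm differed between the regimens (0.00439). Of 9 regulators of mitochondrial genes 0 were called on average and 6 were rhythmic in DRF. With the length trend removed 1 regulator was higher on average (Nrf1, limma's adjusted p = 0.0288). Yy1 peaked at ZT7.11 in DRF (peak-to-trough 0.37) and at ZT22.6 in NRF (0.18), and its rhythm differed (adjusted p = 3.62e-06).

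Genes of larger related protein families were counted in the same way. Of 81 cytosolic ribosomal protein genes tested 66 were higher and 0 lower, with a median of 0.15, and 71 were rhythmic in DRF. With the length trend removed 37 of them were higher. Rps10, with the smallest p of the DRF rhythm in that family, peaked at ZT16.8 (peak-to-trough 0.46, limma's adjusted p = 0.000145). Of 79 nuclear genes for oxidative phosphorylation subunits 32 were higher and 0 lower, with a median of 0.12, and 3 were rhythmic in DRF. With the length trend removed 14 of those were higher. Atp5g2, with the smallest p of the DRF rhythm among those genes, peaked at ZT17.7 (0.29, limma's adjusted p = 0.0193). Whether the members differ from these families was not tested. Mitochondrially encoded genes were not analysed here.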

How the data were processed

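The authors deposited a table headed TPM, whose values are a score, and p-values and q-values of their own rhythm tests per regimen. Per the submitters' processing notes, HISAT2, Bowtie2 and RSEM were used with builds mm10 and GRCm38.p6. The deposited score equals K × log2(1 + 1000000 × c / N) / L, with c a read count, N a library size, L a gene length and K a factor per library. Inverting it gave estimated counts for 17443 genes, and the other 1629 had fewer than 4 values above 0. L equalled the exon-union length of GENCODE M21 for 93.9% of 16869 genes, which the inversion did not use. N was 0.854 to 1.21 times the recovered total, and its derivation was not given in the sources used here. This inversion was tested on simulated data. No deposited column was left unused.

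Tests used limma 3.58.1 in R 4.3.3 on log2(CPM + 1), with all 56 libraries, a mean CPM of at least 1, and Benjamini-Hochberg adjustment over 12025 genes at 0.05. The fits were tested on simulated data. Differences are DRF minus NRF, with ZT0 and ZT24 counted as 1 time in the daily average, and folds understate changes of low genes. The length trend was a loess fit (span 0.5) of each library's deviations on log length. Peaks and peak-to-trough come from a 24 h cosine curve.

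Members with values were named by rule: the 4 smallest p in each direction on average, the smallest p at each time, the 5 smallest p per rhythm test, the 3 highest and lowest levels per kilobase, and those with decimal counts. Those named where a count was small or a set was listed in full were chosen after their values were seen. The members and lists were chosen with earlier results of these data known. Motifs were searched in RefSeq promoters of GRCm38.p6. Alternatives were total counts as library sizes, a pseudocount of 0.1, no filter, the log2 of the deposited score, the length trend removed, a replicate block, and leaving out each library or an end time.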

Additional observations from a re-analysis of the deposited data

Results flagged for a closer look

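Of 98 groups of 4 libraries examined for the shown genes, 5 held a library far from the other 3, and chance flags about 1 group in 20. Mrpl50 had 29.2 CPM in DRF ZT20 replicate 1, against 39.2 to 40.2 CPM in the other 3, and 29.7 CPM in NRF ZT20 replicate 4, against 43.7 to 45.9 CPM. Mrps21 had 60.2 CPM in DRF ZT4 replicate 1, against 75.3 to 77.5 CPM, and 84.5 CPM in NRF ZT20 replicate 4, against 70.6 to 71.9 CPM. Mrpl23 had 56.0 CPM in DRF ZT4 replicate 1, against 72.1 to 74.1 CPM in the other 3. DRF ZT20 replicate 1 was also the library with the highest median of the 78 genes.

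A difference in 24 h rhythm between DRF and NRF, tested directly with limma, was found for Mrpl47 (adjusted p = 0.0138) and Mrpl50 (0.0490). The call of Mrpl47 was kept in all 65 alternatives run, and that of Mrpl50 was lost in 49 of 65 (adjusted p up to 0.0926).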

How the results depend on the processing

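The 38 members called on average became 10 with recovered total counts as library sizes, 22 with the gene-length trend removed, 24 on the log2 deposited score and 20 with a replicate block and the trend removed. Calls at ZT4 fell to 0 under each of these 4 settings. For all tested genes, average calls were 1004 higher and 905 lower in the main fit, and 196 and 3303 with total counts. They were 590 and 359 with the trend removed, and 474 and 922 on the deposited score. With the block and the trend removed they were 539 and 305. Of the members, 0 were called at ZT12 with total counts and 3 without the filter. At ZT16 there were 4 with total counts, 4 without the filter, 5 with the trend removed, 3 on the deposited score and 3 with the block and the trend removed. At ZT24 total counts left 0. An F test over the 7 times with no curve gave 11 rhythmic members in DRF and 1 in NRF, and NRF also had 1 with the trend removed and 1 without ZT0. The rhythm differed for 1 member without the filter, with the replicate block, without ZT24 and without ZT0. With NRF shifted by 12 h the count was 23 with total counts, 7 without the filter, 7 with the trend removed, 4 on the deposited score, 7 with the block and the trend removed, and 20 without ZT0. For counts given here without a share of all tested genes, a change in the members cannot be told from a change in all genes. The cause of these changes was not tested.

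Leaving out each library in turn gave 26 to 44 members on average, 0 to 1 at ZT4, 0 to 10 at ZT12, 0 to 28 at ZT16, 0 to 2 at ZT24, and 11 to 22 rhythmic in DRF. It gave 2 to 15 with NRF shifted by 12 h. The replicate numbers did not pair the libraries (mean correlation of deviations −0.0166 for the same number and 0.00580 for other numbers, and 12 of 56 libraries correlated best with their own number). The replicate block kept all 38 average calls. Over the alternatives, 30 results of named members kept their side of the threshold in 1830 of 1936 values, and 0 changed direction. Most alternatives left out a single library, and a result that failed the test both times was counted as kept. That total is therefore a weak measure of robustness. Over all 78 members, the average difference was above 0 in 73 in the main fit and in 56 with total counts as library sizes.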
